A study of Homo sapiens with 3 samples.

Results

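Interferon-stimulated genes are switched on when a cell meets interferon or foreign nucleic acid, and class I antigen presentation genes, many of which interferon also raises, load peptides onto the HLA molecules of the cell surface. A set of 54 such genes was followed in the U87 glioma clones U87WT and U87Mut. The members were listed by gene symbol, and 53 of them were matched to a probe, out of 25006 genes with a named probe; the array values of IFI27 were not analysed here. Of the 53, 37 had 1 probe and 16 had several, and the brightest probe is given for each gene.

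In outline, type I interferon binds IFNAR1 and IFNAR2 and activates the kinases JAK1 and TYK2, which phosphorylate STAT factors, STAT2 among them. These join IRF9, enter the nucleus and bind the interferon response element of the target genes, whose products detect, cut or trap viral RNA, block virus entry or attach the ubiquitin-like protein ISG15 to other proteins. Glioma cells carry this pathway too, and class I molecules on their surface are what cytotoxic T cells read.

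U87 is a human glioblastoma cell line. U87WT 5 cells carry a GFP-IGF1R fusion with the wild-type receptor, and U87Mut 5 cells carry the same fusion with 3 lysines changed so that it cannot receive SUMO and does not reach the nucleus. Each name stands for 1 stable clone selected with G418, both overexpress their receptor, and no untransfected cells were on these arrays, so that a difference between clones cannot be told apart from a difference between receptors. On each of 3 arrays Cy5 marked the U87WT RNA and Cy3 the U87Mut RNA, and each array held 1 condition: FBS-free medium for 24 h, IGF1 (50 nM) for 24 h, and IGF1 with the receptor kinase inhibitor OSI906. For OSI906, the sample title reads 0.5 μM but the medium label 500 μM; the former, which the methods also give, is used here.

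Every condition was measured once and with the same dye for each clone, so that a gene's dye bias cannot be told apart from a difference between the clones. Probes well above background in both channels made up 50.1% to 52.8% of each array. Counted by the brightest probe of a gene on all arrays, 15343 of the 25006 named genes and 52 of the 53 members were well above background. The SD of a single log2 ratio, taken from the array in FBS-free medium and the OSI906 array over the probes well above background, was 0.144, which holds noise and treatment response together. The array with IGF1 had a bright patch, with a local Cy5 background of up to 66985 against 373 and 45 on the others. Spots marked as not uniform, themselves or in their local background, numbered 384 in FBS-free medium, 572 with IGF1 and 5 with OSI906. Among the members this mark fell on the local background of the single spots of GBP2 and TAPBP, on the array with IGF1. The glial markers GFAP, S100B and SOX2 were well above background on no array, while the other 7 of the 10 glial and mesenchymal markers, VIM, CD44 and FN1 among them, were on all 3, and TNC was called lower in U87WT (mean log2 ratio -0.90). The summed brightness of these markers was 77300 to 95400 in U87WT and 54700 to 66600 in U87Mut, of which VIM alone made up 55.4% to 73.9%. The other 9 summed to 20200 to 28400 and 19900 to 24400, and the part of these markers in the results was not tested. IGF1R had log2 ratios of 0.07, 0.23 and 0.09 (adjusted p = 0.207 by limma), and whether its probe reads the transfected receptor is not known here.

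Promoters are shown for 6 members called by the test described further on, whose promoter in the RefSeq table (GRCh38.p14) held a motif. Among such members they had the largest clone difference. MX2, OASL, GBP2, OAS2 and USP18 have no entry in that table, so whether they hold a motif is not known here. Each line gives the 250 bases before the start of the gene, 5′ to 3′ on the strand of the gene, with the interferon response motif GAAANNGAAA, or TTTCNNTTTC where it lies on the other strand, in capitals.
TAPBP: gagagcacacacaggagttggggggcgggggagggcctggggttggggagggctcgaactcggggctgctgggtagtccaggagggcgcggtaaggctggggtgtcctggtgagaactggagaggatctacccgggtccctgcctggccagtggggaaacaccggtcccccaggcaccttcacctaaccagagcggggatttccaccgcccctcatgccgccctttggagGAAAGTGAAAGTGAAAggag
IFIT1: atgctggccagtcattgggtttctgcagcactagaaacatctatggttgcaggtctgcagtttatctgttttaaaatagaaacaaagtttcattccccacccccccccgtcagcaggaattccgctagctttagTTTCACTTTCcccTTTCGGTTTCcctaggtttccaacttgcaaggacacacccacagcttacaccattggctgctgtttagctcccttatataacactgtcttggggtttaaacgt
ISG20: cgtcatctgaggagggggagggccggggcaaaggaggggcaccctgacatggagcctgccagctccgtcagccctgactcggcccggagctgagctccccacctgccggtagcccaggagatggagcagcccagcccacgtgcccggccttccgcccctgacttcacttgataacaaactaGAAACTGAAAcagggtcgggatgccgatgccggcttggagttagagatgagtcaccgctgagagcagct
IFIH1: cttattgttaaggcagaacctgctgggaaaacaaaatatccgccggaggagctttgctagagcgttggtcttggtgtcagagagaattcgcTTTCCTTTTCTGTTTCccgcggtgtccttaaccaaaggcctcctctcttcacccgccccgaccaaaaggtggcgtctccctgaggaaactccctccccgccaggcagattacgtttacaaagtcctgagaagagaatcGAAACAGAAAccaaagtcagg
IFI44L: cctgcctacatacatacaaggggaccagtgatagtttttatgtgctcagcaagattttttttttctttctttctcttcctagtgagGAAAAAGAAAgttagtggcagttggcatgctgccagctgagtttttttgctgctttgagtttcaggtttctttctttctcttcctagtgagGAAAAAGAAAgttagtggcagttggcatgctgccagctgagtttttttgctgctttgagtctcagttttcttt
IFI6: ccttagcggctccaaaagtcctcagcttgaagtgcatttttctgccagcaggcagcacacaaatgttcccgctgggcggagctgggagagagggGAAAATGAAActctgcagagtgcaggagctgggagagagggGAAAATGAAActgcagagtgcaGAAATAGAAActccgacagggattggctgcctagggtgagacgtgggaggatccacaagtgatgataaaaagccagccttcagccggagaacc

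TAPBP (chr6:33314079-33314328, minus strand) held 2 overlapping copies, the nearest to the start being 14 bases before it. IFIT1 (chr10:89392373-89392622, plus strand) held 2 copies, and ISG20 (chr15:88638766-88639015, plus strand) held 1. IFIH1 (chr2:162318685-162318934, minus strand) and IFI6 (chr1:27672193-27672442, minus strand) held 3 copies each, and IFI44L (chr1:78620198-78620447, plus strand) held 2. TAPBP, IFIT1, IFIH1 and IFI6 were brighter in U87WT, whereas ISG20 and IFI44L were brighter in U87Mut, so the motif stood before members of both directions.

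Over the window from 250 bases before to 50 after the start, 28 of the 44 members with a table entry (63.6%), IFI27 among them, held GAAANNGAAA on either strand, against 3.65% of 27305 promoters. The STAT motif TTCNNNGAA, which reads the same on both strands and can share bases with the first, was found in 10 of the 44 (22.7%), against 7.88%. The first motif was held by 8 of the 11 members called higher in U87WT that have an entry, by 2 of the 3 called lower, and by 17 of the 29 not called, where IFI27 is in no group. The windows of HLA-B and HLA-C held neither motif. A match is a description of letters and not a binding site, and a window without one says nothing about the factor.

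The members leaned toward U87WT, by an amount that the processing changed. Taken as U87WT over U87Mut, their median log2 ratio came to 0.11 in FBS-free medium, 0.19 with IGF1 and 0.12 with IGF1 plus OSI906, where all named genes had 0.00, 0.01 and 0.00. With median normalization within arrays the first turned to -0.03 and the second rose to 0.49, and the second was 0 with the background fitted on all spots and in the deposited table. In the order of the arrays, 9, 12 and 11 members had a log2 ratio above 0.5, where 4.08%, 4.77% and 3.6% of all named genes did. Below -0.5 were 3, 2 and 1 members, against 3.77%, 2.93% and 3.48%. The log2 ratio was above 0 on every array for 27 members (24.7% of all named genes) and below 0 on every array for 10 (24.2%), and it exceeded 0.5 on every array for 7 (1.94%).

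Whether a difference was larger than the spread between the 3 arrays was tested with limma across all probes. Of the 53 members, 17 were called higher in U87WT and 3 lower at an adjusted p under 5%, beside 7% and 6.65% of all named genes, and 33 were not called. Over the genes well above background on all arrays, as 52 of the members were, the shares were 11% higher and 10.7% lower. These shares are also the background for the counts by role below. The arrays of this test are different conditions, so treatment responses add to its error, and a member that was not called is not shown to be equal. The count rested on the processing: it was 1 higher and 3 lower when the background was fitted on all spots, 2 and 0 without the offset of the background correction, 2 and 2 in the deposited table, and 0 and 0 with either median normalization or the processed signals of the scanner software. With the background fitted on all spots, only 2 of the 20 stayed called, STAT2 and IFI44L. ISG20 and XAF1 lost the call there (adjusted p = 0.0511 and 0.376 by limma), so the 3 lower are not the same genes. The count was 7 and 0 without the array in FBS-free medium and 1 and 0 without the array with IGF1 and OSI906. Without the array with IGF1 it was 17 and 5. Calls over all named genes changed as well. From 1751 higher and 1662 lower as reported, they went to 135 and 409 with the background fitted on all spots. They were 200 and 132 without the offset, and 0 and 0 with median normalization or the processed signals. Without the arrays, in the order above, they were 518 and 365, 101 and 91, and 1938 and 2136. All 20 called members kept the sign of their mean in each of the 6 other ways of processing the signals, which use the same 3 arrays. The sign on every single array was kept by 19 with the background fitted on all spots and in the deposited table, where ISG15 was the exception. The size of the mean moved by over 1.5 times in at least 1 of the 6 other ways for 10 of the 20.

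**Figure D1:**
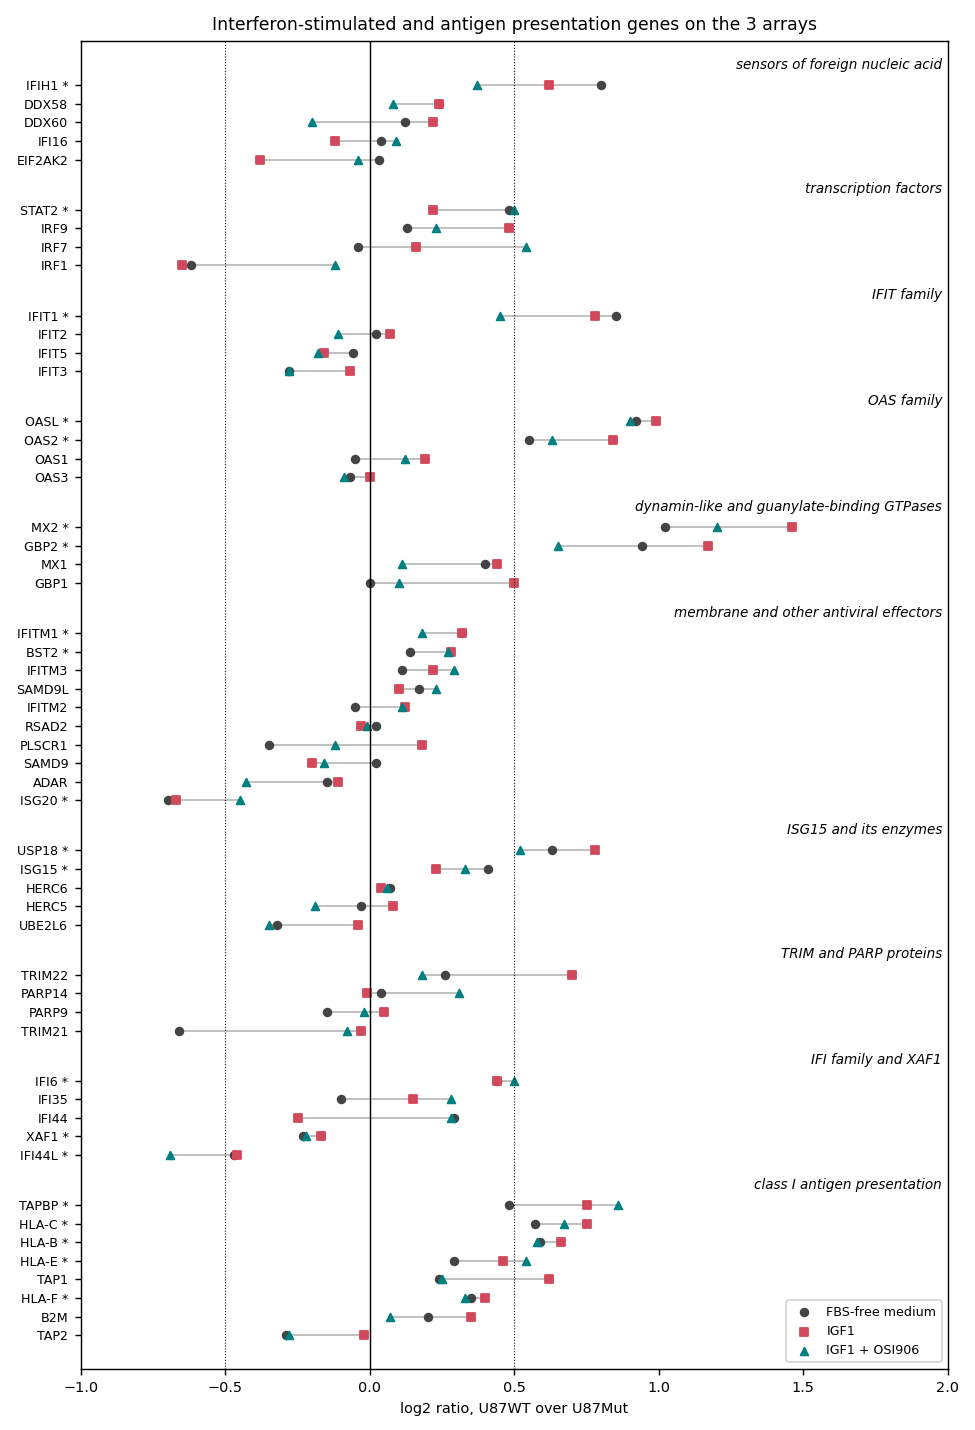
Log2 ratio of U87WT over U87Mut (x axis) for the 53 measured members (y axis) by role, with a point for each array and a line from the lowest to the highest. Stars mark the 20 members called by limma and dotted lines stand at 0.5 and -0.5. The 3 points of MX2, OASL and GBP2 lie right of 0.5 and those of ISG20 and IFI44L left of 0.

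Among the sensors of foreign RNA and DNA, 1 of 5 was called. IFIH1 (MDA5), which binds long double-stranded RNA, had log2 ratios of 0.80, 0.62 and 0.37 in FBS-free medium, IGF1 and IGF1 with OSI906, a mean of 0.60 (1.51-fold, SE 0.0892, adjusted p = 0.0269). DDX58 (RIG-I), the sensor of short RNA with a free 5′ triphosphate, had 0.24, 0.24 and 0.08 (adjusted p = 0.106). DDX60, IFI16 and the RNA-activated kinase EIF2AK2 had mean log2 ratios of 0.05, 0.00 and -0.13 and were on both sides of 0 over the arrays.

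Of the transcription factors, STAT2 was called higher in U87WT, with log2 ratios of 0.48, 0.22 and 0.50 (mean 0.40, SE 0.0666, adjusted p = 0.035; 0.31 to 0.68 in the other ways of processing). Its partner IRF9 had 0.13, 0.48 and 0.23 and was not called (adjusted p = 0.115), and neither was IRF7, the factor that amplifies interferon production, with -0.04, 0.16 and 0.54. IRF1, which also binds class I promoters, lay on the other side: its log2 ratios were -0.62, -0.65 and -0.12, the last with OSI906 (mean -0.46, adjusted p = 0.102).

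In the IFIT family, whose proteins bind foreign RNA ends, only IFIT1 was called among the 4 members. Its normalized brightness (log2) in FBS-free medium, IGF1 and IGF1 with OSI906 was 8.58, 8.42 and 8.21 in U87WT, and 7.73, 7.64 and 7.76 in U87Mut. All U87WT values lay above all U87Mut values, by a mean of 0.69 (1.61-fold, SE 0.0875, adjusted p = 0.018). IFIT2, IFIT3 and IFIT5 had mean log2 ratios of -0.01, -0.21 and -0.13, none of them called.

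The OAS enzymes make the messenger that activates RNase L. OASL, a relative without that enzyme activity, had a brightness of 9.56, 9.49 and 9.40 in U87WT and of 8.64, 8.50 and 8.50 in U87Mut. Its log2 ratios of 0.92, 0.99 and 0.90 lay close together, and the clones did not overlap (mean 0.94, 1.91-fold, SE 0.0372, adjusted p = 0.0032). OAS2 had 7.89, 7.82 and 7.83 in U87WT against 7.34, 6.98 and 7.21 in U87Mut (mean log2 ratio 0.67, SE 0.0658, adjusted p = 0.0104). The other probes of OAS2, which carry the accessions of other transcripts, had mean log2 ratios of 0.08 and 0.00 and were not called, and the mean of the brightest ran from 0.44 to 0.99 in the other ways of processing. The OAS2 probe with 0.00 was well above background on only 2 arrays. OAS1 and OAS3 had means of 0.09 and -0.05.

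The GTPases held the largest difference among the members. MX2, which blocks the nuclear entry of viruses, had a brightness of 8.81, 8.87 and 8.78 in U87WT and of 7.79, 7.41 and 7.58 in U87Mut. The clones did not overlap, and the mean log2 ratio was 1.23 (2.34-fold, SE 0.0908, adjusted p = 0.00605). GBP2, a guanylate-binding protein that coats intracellular pathogens, had 7.93, 7.96 and 7.56 against 6.99, 6.79 and 6.92 (mean log2 ratio 0.92, 1.89-fold, SE 0.105, adjusted p = 0.0143). On the arrays without the mark on its local background, the log2 ratio of GBP2 was 0.94 and 0.65. Its mean ran from 0.60 to 1.91 in the other ways of processing. MX1 had 0.40, 0.44 and 0.11 (adjusted p = 0.084) and GBP1 0.00, 0.50 and 0.10 (adjusted p = 0.387).

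**Figure D2:**
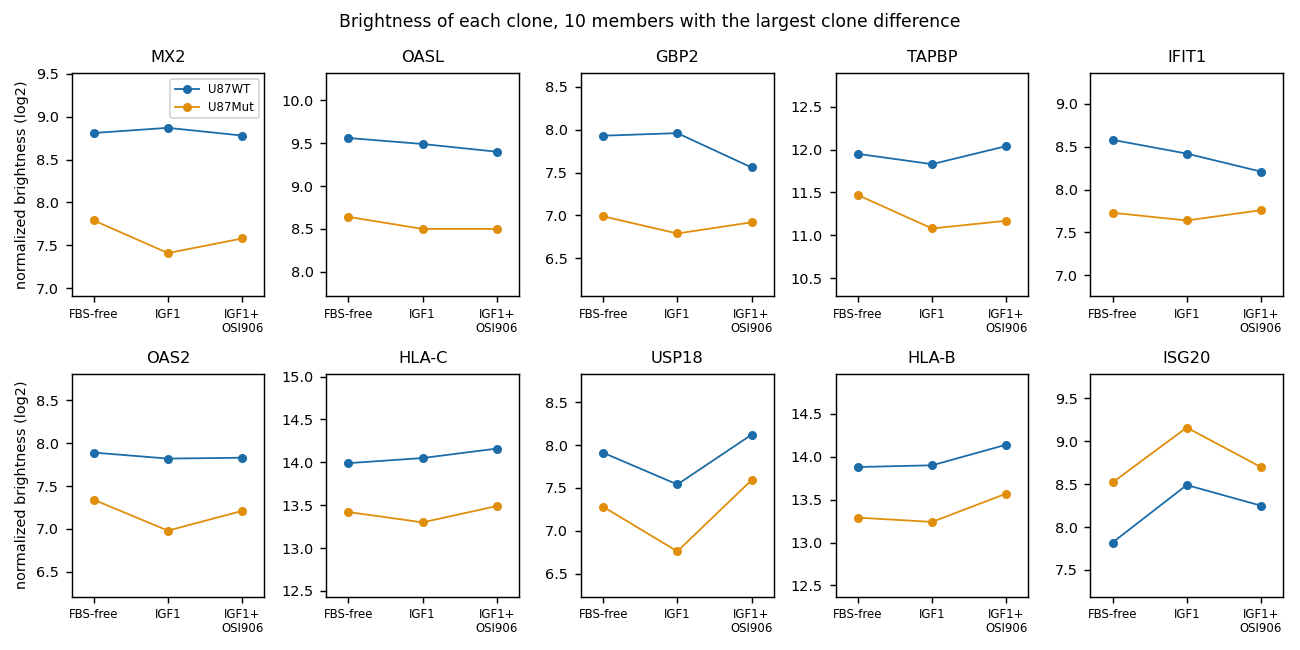
Normalized brightness (log2, y axis) of U87WT and U87Mut on the 3 arrays (x axis) for the 10 members with the largest clone difference; each point is 1 array and every panel spans the same number of log2 units. The U87WT line lies above the U87Mut line in 9 panels and below it for ISG20.

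Of the 10 membrane and other effectors, 2 were called higher and 1 lower, beside 11% and 10.7% of the named genes well above background. IFITM1, which hinders virus fusion, had log2 ratios of 0.32, 0.32 and 0.18 (mean 0.28, SE 0.0448, adjusted p = 0.0332), and BST2 (tetherin), which holds budding viruses at the membrane, had 0.14, 0.28 and 0.27 (mean 0.23, SE 0.0437, adjusted p = 0.0491). The second probes of IFITM1 and BST2 had means of 0.09 and 0.06 and were not called. They were well above background on only 2 arrays and 1 array, and the offset pulls dim ratios toward 0. In the other ways of processing the mean of the brightest probe ran from 0.17 to 0.87 for IFITM1 and from 0.14 to 0.92 for BST2. IFITM2 and IFITM3, with means of 0.06 and 0.21, were not called, and their sequences are so alike that the probes may not tell them apart. ISG20, an exonuclease for single-stranded RNA, went the other way, with 7.82, 8.49 and 8.25 in U87WT and 8.52, 9.16 and 8.70 in U87Mut. Its U87Mut value was the higher on each array, by a mean of 1.52-fold (log2 ratio -0.61, SE 0.0613, adjusted p = 0.0111), and the highest U87WT value lay just under the lowest U87Mut value. ADAR, SAMD9, SAMD9L and PLSCR1 had means between -0.23 and 0.17, none called. RSAD2 (viperin), one of the most inducible genes of the pathway, was not well above background on any array, so no fold is given for it.

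In the ISG15 system, ISG15 itself had log2 ratios of 0.41, 0.23 and 0.33 (mean 0.32, 1.25-fold, SE 0.0478, adjusted p = 0.0261). Over the other ways of processing the mean of ISG15 ran from 0.20 to 0.42 and that of USP18 from 0.42 to 1.02. With the background fitted on all spots and in the deposited table, ISG15 did not keep its sign on every array. USP18, the protease that removes ISG15 and also restrains the interferon receptor, had a brightness of 7.91, 7.54 and 8.12 in U87WT and of 7.28, 6.76 and 7.59 in U87Mut. It was higher in U87WT on each array (mean log2 ratio 0.64, 1.56-fold, SE 0.0591, adjusted p = 0.00908), while the ranges of the clones over the conditions overlapped. The conjugating enzyme UBE2L6 and the ligases HERC5 and HERC6 had means of -0.24, -0.05 and 0.06 and were not called. None of the 4 TRIM and PARP proteins was called either, with means of 0.38 for TRIM22, 0.12 for PARP14, -0.04 for PARP9 and -0.26 for TRIM21. The array with IGF1 stood apart for TRIM22 (0.70) and the array in FBS-free medium for TRIM21 (-0.66).

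The IFI family and XAF1 were divided. IFI6, which restrains apoptosis, had log2 ratios of 0.44, 0.44 and 0.50 (mean 0.46, SE 0.035, adjusted p = 0.00647). IFI44L had -0.47, -0.46 and -0.69 (mean -0.54, 1.46-fold higher in U87Mut, SE 0.059, adjusted p = 0.0129), and XAF1, a promoter of apoptosis, had -0.23, -0.17 and -0.22 (mean -0.21, SE 0.0349, adjusted p = 0.0371). The second probe of XAF1 had a mean of -0.11 and was not called, and the mean of the first ran from -1.13 to -0.15 in the other ways of processing. IFI44, the neighbor and relative of IFI44L, had 0.29, -0.25 and 0.28 and was not called, nor was IFI35.

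Class I antigen presentation had the highest share of calls among the 10 roles: 5 of 8 were called higher, none lower, and 7 lay above 0 on every array. The IFI family and XAF1 came close, with 1 higher and 2 lower of 5. Of all named genes with a brightness from 13 to 14 (log2), 18.8% were called higher and 13.6% lower. None of the class I calls held with median normalization or the processed signals. The heavy chains HLA-C and HLA-B had brightness values of 13.99, 14.05 and 14.16 and of 13.88, 13.90 and 14.14 in U87WT. In U87Mut they were 13.42, 13.30 and 13.49 for HLA-C, and 13.29, 13.24 and 13.57 for HLA-B. The clones overlapped for neither gene, with mean log2 ratios of 0.66 (1.58-fold, SE 0.0479, adjusted p = 0.00584) for HLA-C and 0.61 (1.52-fold, SE 0.0363, adjusted p = 0.00438) for HLA-B. HLA-E and HLA-F had means of 0.43 and 0.36 (adjusted p = 0.0208 and 0.0103), and the second probes of HLA-B, HLA-E and HLA-F gave 0.63, 0.44 and 0.41. The mean ran from 0.20 to 0.85 for HLA-E and from 0.31 to 0.65 for HLA-F in the other ways of processing. Very bright genes leaned toward U87WT as a whole, with 57.2% of the 145 named genes brighter than 15 (log2) called higher and 0 called lower. The 105 named genes within 0.5 log2 units of the brightness of HLA-E had a median mean log2 ratio of 0.33, and 33.3% of them lay at or above HLA-E. Around HLA-B, HLA-C and HLA-F the median was 0.03 or 0.04, and 4.03%, 2.84% and 15.2% of genes as bright lay at or above them. The part of brightness in these differences was not tested. The class I heavy chains resemble each other closely, so that their probes may share targets, and the probe sequences were not used here.

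TAPBP (tapasin), which joins the heavy chain to the peptide transporter, had 11.95, 11.83 and 12.04 in U87WT and 11.47, 11.08 and 11.17 in U87Mut (mean log2 ratio 0.70, 1.62-fold, SE 0.0822, adjusted p = 0.0155). Its log2 ratio was 0.48 and 0.86 on the arrays where the local background of its spot was not marked. The other probes of TAPBP had means of 0.30 and 0.22 and were not called. The transporter subunit TAP1 had log2 ratios of 0.24, 0.62 and 0.25 (adjusted p = 0.0881), while TAP2 had -0.29, -0.02 and -0.28 (adjusted p = 0.195). B2M, the light chain of every class I molecule, had 0.20, 0.35 and 0.07 (mean 0.20, adjusted p = 0.156), beside a median of 0.17 for the 156 genes of like brightness. The heavy chains and the brightest probe of tapasin were thus called, and the light chain and the transporter were not. A call also rests on the spread over the arrays: TAP1 had a mean of 0.37 (SE 0.0882) and the called HLA-F 0.36 (SE 0.035). The calls therefore do not show that called and uncalled members differ from each other.

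**Figure D3:**
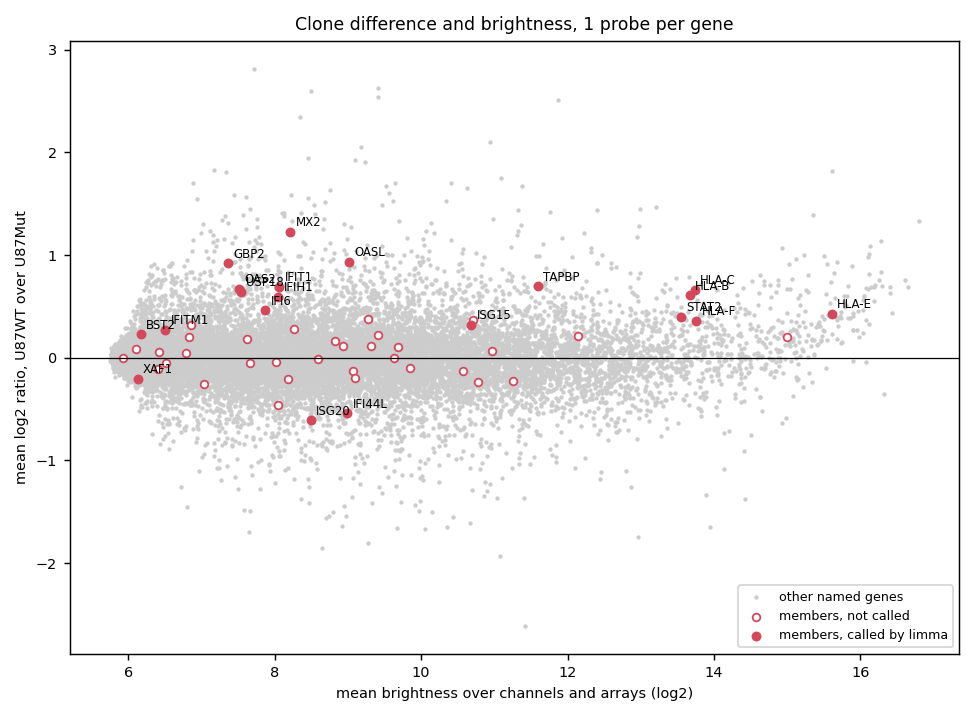
Mean log2 ratio of U87WT over U87Mut on the 3 arrays (y axis) against mean brightness over both channels (log2, x axis), with a point for the brightest probe of each named gene. MX2, OASL and GBP2 lie highest among the members, HLA-B and HLA-C lie above most genes of like brightness, HLA-E lies within the cloud of the brightest genes, which is above 0, and XAF1, IFI44L and ISG20 lie below 0.

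Other genes of the pathway, from 5 lists of 89 genes of which 87 were measured, were called higher for 18 and lower for 5, beside the shares of 7% and 6.65% over all named genes given above, with a median mean log2 ratio of 0.04. Of the 8 interferons measured, IFNB1, IFNE, IFNG, IFNK, IFNL1, IFNL3 and IFNW1 were not well above background on any array. IFNL2 was on all 3, with log2 ratios of 0.19, 0.18 and 0.02, and was not called. Of the receptor chains, IFNAR1 (0.39), IFNAR2 (0.43) and IFNGR1 (0.56) were called higher by mean log2 ratio, with adjusted p of 0.00858, 0.0167 and 0.0179. IFNGR2, the partner of IFNGR1, had -0.36, -0.18 and -0.19 (mean -0.25, adjusted p = 0.0598), and IL10RB (0.19) and IFNLR1 (0.08) were not called either. The kinases JAK1 (-0.19), JAK2 (0.06) and TYK2 (-0.01) were not called, and the inhibitor SOCS1 was (0.36, adjusted p = 0.0409).

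Among the sensing genes, TMEM173 (STING), the adaptor for cytosolic DNA, had a mean log2 ratio of 0.68 (adjusted p = 0.00704), DHX58 0.47 (adjusted p = 0.00719) and the mitochondrial adaptor MAVS 0.28 (adjusted p = 0.0375), whereas the ubiquitin ligase TRIM25 was lower, with -0.41 (adjusted p = 0.0405). The DNA sensor itself, MB21D1 (cGAS), was not well above background on any array. Of the other antigen presentation genes, HLA-G (0.70), the pseudogene HLA-J (0.45), the chaperone CALR (0.75) and the peptidase ERAP2 (0.33) were called higher and NLRC5, an activator of class I genes, lower (-0.23, adjusted p = 0.0394). Of the other interferon-induced genes, TNFSF10, RNF213, APOL1, APOL2, GBP5, PARP10 and RTP4 were called higher, with means from 0.22 to 0.47, and IFI30 (-0.53), SP100 (-0.42) and PNPT1 (-0.36) lower. The chemokines CXCL9, CXCL10 and CXCL11, which interferon induces strongly in many cells, were not well above background on any array.

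Leukocytes express many of these genes, so their markers were looked at beside them, although all RNA came from cultured clones of 1 glioblastoma cell line. Of the 6 leukocyte markers measured, 1 was called: CSF1R, with log2 ratios of 0.55, 0.62 and 0.72 (adjusted p = 0.0058). The summed brightness of the 6 was 1050 to 1330 in U87WT and 798 to 997 in U87Mut, of which CSF1R made up 55% to 72.4%. The other 5 summed to 367 to 379 and 353 to 359. PTPRC and CD14 were above background on all arrays at mean log2 ratios of 0.07 and 0.05, and their part in the results was not tested. In bulk RNA, fewer cells that express a gene and less RNA per cell cannot be told apart.

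The response of each clone was taken within a channel, where a fixed dye bias of a probe cancels, as the difference of normalized brightness (log2) between arrays. These are single arrays, so no test was possible. For the members, the median difference from FBS-free medium was 0.01 in U87WT and -0.10 in U87Mut, against 0.00 and -0.01 over all named genes. Above 0.5 were 1 member in U87WT (1.51% of all named genes) and 2 in U87Mut (0.568%), and below -0.5 were 0 and 1 (1.76% and 1.03%). With OSI906 under IGF1 the median difference was -0.03 in U87WT and 0.08 in U87Mut, with 2 members above 0.5 in U87WT (2.31%) and 1 in U87Mut (1.27%), and 1 and 0 below -0.5 (2.47% and 0.644%).

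ISG20 was higher after IGF1 in both clones, by 0.67 in U87WT and 0.64 in U87Mut, and lower again with OSI906, with differences of -0.24 and -0.46. USP18 ran the other way: its difference was -0.37 and -0.52 after IGF1, and 0.58 and 0.83 when OSI906 was added. Both genes kept these directions, in both clones, in the 6 other ways of processing that were run for responses. However, both were picked for large differences after IGF1, and the OSI906 difference subtracts the same single IGF1 array. An error on that array would by itself give opposite signs, so the reversal is not separate evidence of a response. The same sharing holds for all members. EIF2AK2 was higher after IGF1 in U87Mut by 0.55 and in U87WT by 0.14, and these were 0.18 and 0.51 with median normalization, which turns their order. Without normalization between arrays its U87WT value was -0.10. UBE2L6 was higher by 0.42 in U87WT and 0.15 in U87Mut, and the latter was -0.23 with median normalization and -0.09 without normalization between arrays.

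IFI44 differed by -0.44 after IGF1 in U87WT and by 0.11 in U87Mut, and MX2 by 0.06 and -0.39. With the background fitted on all spots, the U87WT value of MX2 was -0.76, and it was also below 0 with the processed signals (-0.04) and without normalization between arrays (-0.15). With OSI906, IRF1 was higher in U87WT by 0.66 and in U87Mut by 0.13, and DDX60 lower in U87WT, with -0.56 against -0.14. For IRF1 the 6 other ways of processing gave 0.25 to 0.84 in U87WT, and for DDX60 -1.19 to -0.32.

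**Figure D4:**
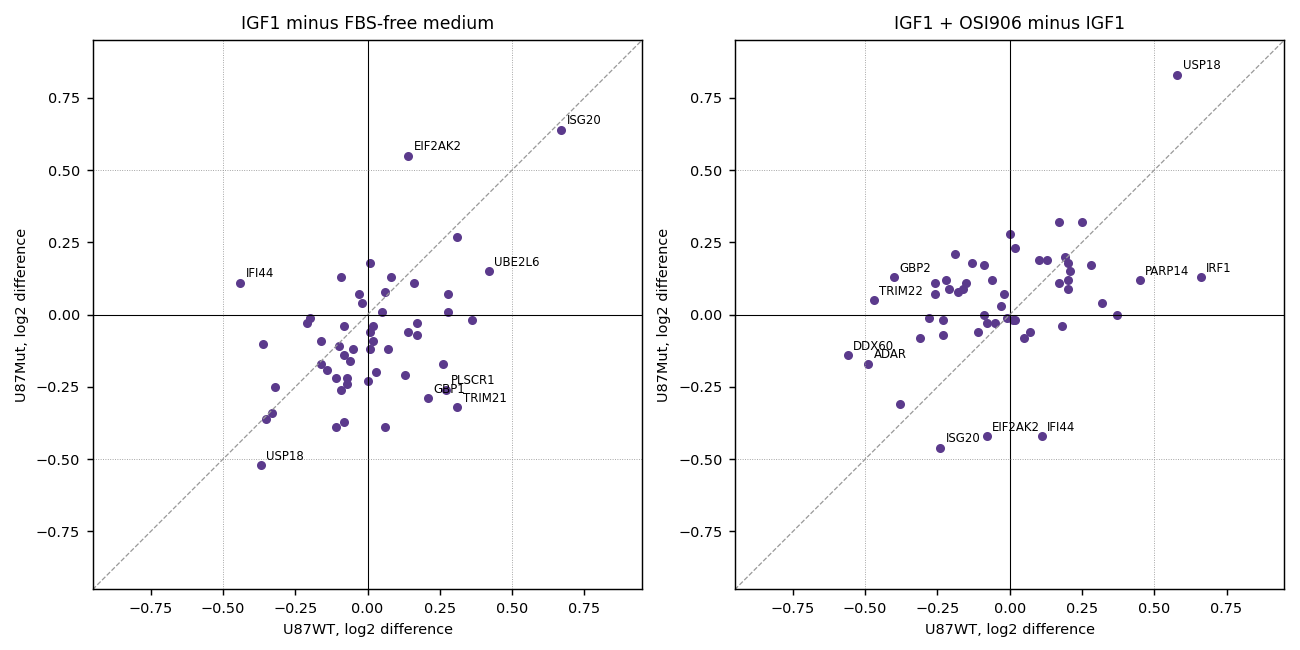
Difference of normalized brightness (log2) in U87Mut (y axis) against that in U87WT (x axis) for the 53 members, from FBS-free medium to IGF1 (left) and from IGF1 to IGF1 with OSI906 (right); the dashed line marks equal differences and dotted lines stand at 0.5 and -0.5. ISG20 stands at the upper right and USP18 at the lower left after IGF1, and USP18 at the upper right with OSI906.

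**Figure D5:**
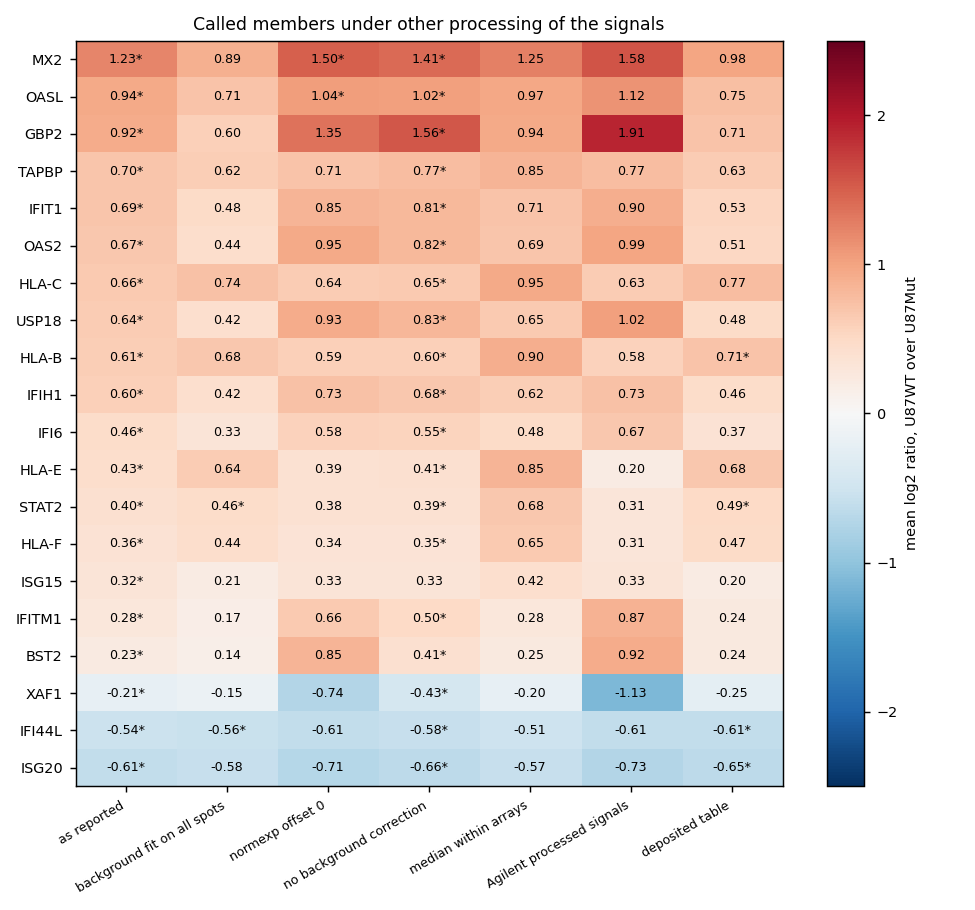
Mean log2 ratio of U87WT over U87Mut (color and number) for the 20 called members (rows) as reported and in 6 other ways of processing the signals (columns), with a star where the adjusted p of limma was under 5%. The sign of each row is the same in all columns, while the stars change from 20 as reported to 0 with median normalization.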

How the data were processed

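Total RNA of both clones was hybridized to 2-color Agilent arrays, 3 in all. Per the file headers, Agilent Feature Extraction 12.0.3.1 gave the deposited intensity values used here, the median spot brightness and median local background in each channel, not normalized, with spot marks, processed intensity values, and a log10 ratio of Cy5 over Cy3. The authors also deposited a table of log2 ratios, which by the methods come from limma after background correction and normalization of both kinds, none named; its scale and direction were checked against the scanner values (r = 0.987, 0.597 and 0.975 with the ratios used here, in the order FBS-free medium, IGF1, IGF1 with OSI906; column medians -0.00661, -0.0074 and -0.00304).

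The software was R (version 4.3.3), limma (3.58.1) and data.table (1.17.8). Background correction used normexp, offset 50, fitted without spots marked as not uniform; this fit was first chosen, in earlier work on these data, after the bright patch of the IGF1 array was seen. The offset pulls the ratios of dim probes toward 0. Then 2075 of 62976 spots (controls) were removed, loess within arrays gave outlier spots no weight, Aquantile was applied between arrays, outlier spots (95, 117 and 95) were left out and values were averaged by probe. For B2M, which has 10 spots, 1 was left out in FBS-free medium and 1 with OSI906. Saturated spots numbered 0. RefSeq accessions gave GRCh38.p14 symbols to 34892 of 58201 probes. The test was an intercept-only limma fit (lmFit, eBayes) with Benjamini-Hochberg adjustment at 5% over 58201 probes; its precision is limited by the number of arrays. The steps were tested on simulated data, where the share of changed probes that this test called depended strongly on how many probes changed.

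The members and all gene lists were chosen with earlier results of these data known. Some listed genes are not reported here and were left out of the lists' counts. Genes given in full were the 10 members with the largest absolute mean log2 ratio among those well above background with 1 sign on all arrays, and the 3 largest rises and falls after IGF1 in either clone; called genes of the other lists are named, and IRF1 and DDX60 were singled out for their OSI906 difference after their values were seen, as was the comparison with genes of like brightness. Alternatives were the background fit, its offset, no correction, median within arrays, scale or no normalization between arrays, processed signals, the deposited table, other probes, bright members, robust eBayes with trend, and leaving out each array.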

Additional observations from a re-analysis of the deposited data

Results flagged for a closer look

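In 6 cases a member moved in opposite directions in the clones and the responses, U87WT minus U87Mut, lay more than 0.5 apart (log2); none of these differences was tested, since each rests on single arrays. After IGF1 the difference was 0.63 for TRIM21 (0.31 in U87WT, -0.32 in U87Mut), 0.53 for PLSCR1 (0.27 and -0.26) and -0.54 for IFI44 (-0.44 and 0.11). With OSI906 under IGF1 it was 0.53 for IFI44 (0.11 and -0.42), -0.53 for GBP2 (-0.40 and 0.13) and -0.52 for TRIM22 (-0.47 and 0.05). In the 6 other ways of processing, the TRIM21 difference ranged from 0.62 to 1.02 and the PLSCR1 difference from 0.14 to 1.22. The IFI44 difference after IGF1 ranged from -0.82 to 0.14 and that with OSI906 from 0.18 to 0.82. GBP2 ranged from -1.98 to 0.40 and TRIM22 from -0.86 to 0.01. Both clones moved the same way for IFI44 after IGF1 with median normalization (-0.10 and -0.23) and without normalization between arrays (-0.66 and -0.11), and for IFI44 with OSI906 under median normalization (-0.06 and -0.24). With the background fitted on all spots they did so for GBP2 (0.44 and 0.04) and TRIM22 (-0.09 and -0.11), and with the processed signals for TRIM22 (-0.46 and -0.01). The local background of the GBP2 spot on the IGF1 array was marked as not uniform. All 6 cases use the IGF1 array.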

How the results depend on the processing

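No paired analysis was possible because each condition had 1 array, and the clones are already paired on it. With the background fitted on all spots, 1 member was called higher, the members' median after IGF1 was 0, 6 and 4 members passed 0.5 and -0.5 there, and the median U87WT difference with OSI906 was 0.13. With an offset of 0, 2 and 0 were called, 19 and 5 passed 0.5 and -0.5 on the IGF1 array, and 3 passed -0.5 with OSI906. With median normalization, 0 and 0 were called, the median after IGF1 was 0.49, 5 and 8 passed in FBS-free medium and 25 and 0 after IGF1, and the median IGF1 differences were 0.26 in U87WT and -0.38 in U87Mut. With the processed signals, 0 and 0 were called, 15 passed 0.5 in FBS-free medium, and 5 and 4 passed -0.5 after IGF1 and with OSI906. In the deposited table, 2 were called higher, the median after IGF1 was 0, and 6 and 5 passed there; the mean ratio of IFI44 turned to -0.01. Without normalization between arrays the median IGF1 differences were -0.17 and -0.29. Robust eBayes with trend called 11 higher. Leaving out each array in turn gave 1 to 17 members called higher and 0 to 5 lower. Over all named genes the same fits called 101 to 1938 higher and 91 to 2136 lower. Of the values that answer a comparison, 36 moved by more than a set limit and 101 did not. A change below the limit was not counted, such as the FBS-free median going from 0.11 to -0.03 with median normalization. The 101 also include values that could hardly change, such as those of the members well above background, 52 of the same 53. With the background fitted on all spots, medians and counts of the FBS-free and OSI906 arrays stayed as reported. The 101 therefore do not measure robustness. Counted as pairs of a gene given in full and a setting, 61 lost the call, 3 gained one and 1 changed sign. The other 78 kept their sign and stayed called or not called. The 78 include pairs that could not change, such as genes with 1 probe when the second brightest probe was taken. The cause was not tested. Signals near background limit RSAD2 and the dim members XAF1 and BST2.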
